A study of Mus musculus with 16 samples.

Results

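The genes described here are 10 genes of fibroblasts and of the extracellular matrix, Spon2, Pi16, Dcn, Lum, Fbn1, Fn1, Tnxb, Sparc, Postn and Timp1, measured in mouse gastrocnemius muscle. They are 10 of the 28478 gene names on the array and are covered by 19 of its 41174 probes, taken as every probe that carries one of these names and is no control spot. The group was chosen by its log2 differences between the diets in these same arrays, with Spon2 and Pi16 at its head. The diet comparison of the 10 genes is therefore a description, and nothing is read from the limits that their probes passed or missed.

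Skeletal muscle fibres are wrapped in sheets of connective tissue that are made and kept up by fibroblasts lying between the fibres. These cells secrete fibrillar collagens, proteoglycans that coat the collagen fibrils, glycoproteins that tie fibrils, elastic microfibrils and cells together, and inhibitors that hold matrix-degrading proteases in check. Pi16 is known as a surface marker of a fibroblast subset found in many tissues, whereas the other genes are made more broadly by fibroblasts, and several of them also by cells of blood vessels, nerves and fat.

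Male C57BL/6N mice ate a corn oil-based high-fat diet (cHF) containing rosiglitazone, a drug that activates the nuclear receptor PPARgamma, at 10 mg/kg diet for 8 weeks. In the cHF+ROSI group (8 mice) nothing else was added, and in the cHF+F+ROSI group (8 mice) a concentrate of long-chain n-3 polyunsaturated fatty acids, the marine oils DHA and EPA, took the place of 15% of the dietary lipids. All mice were fasted for 10 h in the light phase, given Chow overnight and killed the next morning. Every animal had thus received rosiglitazone and had been re-fed, and mice without the drug were not analysed here. The comparison therefore asks what the n-3 concentrate changed on top of rosiglitazone.

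Each mouse had 1 two-colour array, on which its own RNA carried the dye Cy5 and a pool of the study's samples carried Cy3. The methods name a higher rosiglitazone dose in the pool of the earlier array study. Whether it was also in the pool used here is not clear from them. A value is the log2 ratio of the mouse to that pool after background correction and loess normalization, and values are compared between mice for 1 probe only, never between probes. On each of the 4 slides the cHF+ROSI arrays occupied positions 1 and 3 and the cHF+F+ROSI arrays 2 and 4, so the effects of diet and position cannot be told apart. The cHF+ROSI RNAs had been labelled and hybridised in duplicate, and the arrays of both diets used here are marked as part 2. The median spot had a Cy5 signal 2.33 to 3.64 times its local background and a Cy3 signal 1.78 to 2.02 times. The spread of all probes around the group means (SD) was 0.12 to 0.19 on the log2 scale in 14 arrays, 0.32 in cHF+ROSI replicate 1 and 0.27 in cHF+F+ROSI replicate 2. Of 19398 probes bright enough to be used, 16 (0.0825%) passed an adjusted p of 0.05 with limma and 402 (2.07%) passed an unadjusted p of 0.05 together with a fold of 1.2, the limit used below for a call, with 269 (1.39%) lower and 133 (0.686%) higher in cHF+F+ROSI.

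Spon2 and Pi16 had the largest differences between the diets among the 10 genes, with lower values in cHF+F+ROSI muscle. The matrix genes Dcn, Fbn1, Fn1, Tnxb and Sparc lay close together in both diets, and Lum, Postn and Timp1 lay between. In whole muscle RNA a lower value can come from fewer cells of a type or from less RNA per cell, which cannot be told apart here. Of the 19 probes, 16 passed the limit on weak spots, a signal of at least 2 times the local background in each channel, and every gene kept at least 1 probe. The probes left out were 1 of 2 for Dcn, whose Cy5 and Cy3 signals were 2.18 and 1.63 times background, 1 of 4 for Fn1 at 1.85 and 1.69 times, and 1 of 2 for Timp1 at 2.96 and 1.92 times, whereas the weakest probe kept, the dimmer of 2 for Tnxb, stood at 3.23 and 2.39 times.

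**Figure D1:**
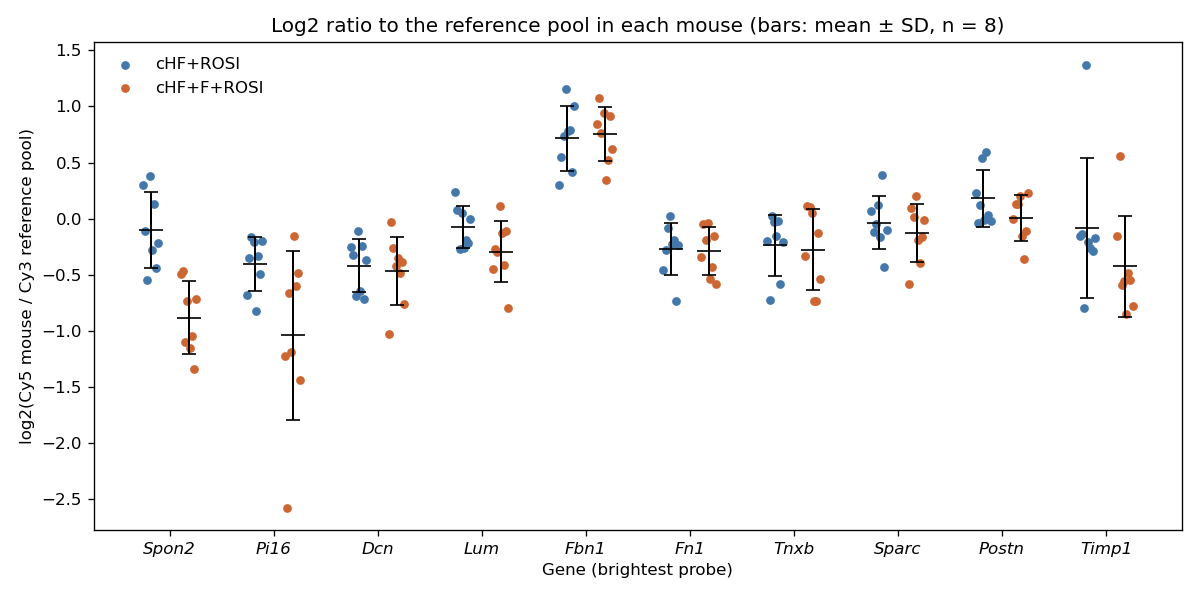
Each point is the log2 ratio of 1 mouse to the reference pool (y axis, log2 units) for the brightest probe of each of the 10 genes (x axis), with cHF+ROSI mice in blue, cHF+F+ROSI mice in orange, and bars for the mean ± SD of 8 mice. The lowest Pi16 value, -2.58, and the highest Timp1 value, 1.37, each belong to a single mouse, and for Spon2 6 of 8 cHF+F+ROSI mice sit below every cHF+ROSI mouse.

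Spon2 encodes mindin, a secreted protein of the F-spondin family that sits in the matrix and is known for binding integrins and microbial surfaces. On its brighter probe (chr5:33530825-33530884, minus strand, NCBI36 as in the array files, at 13.3 times background) the cHF+ROSI mice ran from -0.55 over a median of -0.16 to 0.38 in log2 ratio, with a mean of -0.10 ± 0.34 (SD, n = 8). The cHF+F+ROSI mice ran from -1.35 over a median of -0.89 to -0.47, with a mean of -0.88 ± 0.32 (SD, n = 8). All 8 mice given the n-3 concentrate were below the cHF+ROSI mean and 6 of them were below the lowest cHF+ROSI mouse, while the other 2 lay within the cHF+ROSI range. The difference in log2 ratio was -0.78 (SE 0.15), or 1.72-fold lower.

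The dimmer Spon2 probe (chr5:33531311-33531370, minus strand, 4.80 times background in Cy5) gave log2 ratios from -0.60 over a median of -0.41 to -0.06 in cHF+ROSI and from -0.82 over a median of -0.73 to -0.61 in cHF+F+ROSI. The groups did not overlap, although the nearest mice of the 2 diets were almost level, at -0.60 and -0.61. Its difference was smaller, at -0.35 (SE 0.07), and its size depended on the processing. It stayed at -0.34 without background correction but was -0.65 by normexp without an offset, -0.66 by median centring, -0.65 in the authors' normalized table, -0.95 with the scanner's processed signals and -0.62 in the Cy5 channel alone. Within the 4 slides the brighter probe was lower in cHF+F+ROSI on all 4, by log2 differences of -1.12 to -0.28, and so was the dimmer one, by -0.49 to -0.14. The reference channel of the brighter probe differed by 0.08 (SE 0.04) between the diets, against -0.80 (SE 0.18) in the mouse channel.

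Pi16 encodes peptidase inhibitor 16, a membrane-anchored protein of the CRISP family. Its probe (chr17:29055673-29055732, plus strand, NCBI36) was bright, at 103 times background in Cy5, and the 8 cHF+ROSI mice held log2 ratios from -0.83 over a median of -0.35 to -0.17, with a mean of -0.41 ± 0.24 (SD). The 8 cHF+F+ROSI mice spread more widely, from -2.58 in replicate 2 over a median of -0.93 to -0.15 in replicate 5, with a mean of -1.04 ± 0.76 (SD). The highest mouse given the n-3 concentrate thus stood above every cHF+ROSI mouse, 4 of the 8 stood below all of them, and 7 of 8 were below the cHF+ROSI mean. The difference in log2 ratio was -0.63 (SE 0.25), or 1.55-fold lower, and rested in part on the lowest mouse, being -0.41 without cHF+F+ROSI replicate 2 and -0.34 with arrays weighted by their quality. By slide it was -1.10, -0.49, 0.04 and -0.99, that is, lower on 3 of 4 slides.

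The stretch of 250 bases before the Pi16 start site is shown (RefSeq, GRCm38.p6, chr17:29318632-29318881, plus strand, 5′ to 3′). Pi16 was picked because it alone of the 10 had a negative coefficient with the collagens between mice, given below, which did not pass its test. Capitals mark matches, on either strand, to CAGAC, the short element bound by SMAD proteins, AGGTCA, the half-site of nuclear receptors such as PPARgamma, or TATAAA, the TATA box, which were the 3 motifs searched and none of which contains another.
Pi16: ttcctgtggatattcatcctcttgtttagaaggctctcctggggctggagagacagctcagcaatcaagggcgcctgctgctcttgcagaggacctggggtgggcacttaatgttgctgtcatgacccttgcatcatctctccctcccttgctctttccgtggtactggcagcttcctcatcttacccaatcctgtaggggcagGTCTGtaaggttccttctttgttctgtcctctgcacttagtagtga
The single match is to CAGAC, read on the minus strand 46 bases before the start. CAGAC occurred in 42.2%, AGGTCA in 14% and TATAAA in 12.4% of the 32851 promoters of this length in the table, and in 4, 2 and 1 of the 7 promoters found for 6 of the 10 genes.

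Dcn and Lum encode decorin and lumican, small leucine-rich proteoglycans that bind collagen fibrils and regulate their thickness and spacing. Dcn, at 1496 times background in Cy5, ran from -0.71 over a median of -0.34 to -0.11 in cHF+ROSI and from -1.03 over a median of -0.41 to -0.03 in cHF+F+ROSI (log2 ratios). The groups lay over each other, and the difference of -0.05 (SE 0.12) was smaller than the spread between mice and changed sign in the Cy5 channel alone (0.05). Lum ran from -0.27 over a median of -0.10 to 0.23 in cHF+ROSI and from -0.80 over a median of -0.28 to 0.11 in cHF+F+ROSI. Of the mice given the n-3 concentrate 7 of 8 were below the cHF+ROSI mean and 4 below its lowest mouse, with a log2 difference of -0.22 (SE 0.11) that did not reach the fold limit. It was lower on 3 of 4 slides.

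Fbn1 encodes fibrillin-1, the core of elastic microfibrils, Fn1 encodes fibronectin, which links collagen to cell-surface integrins, and Tnxb encodes tenascin-X, a large glycoprotein between collagen fibrils. The brighter Fbn1 probe had positive log2 ratios in every mouse. They ran from 0.30 over a median of 0.76 to 1.16 in cHF+ROSI and from 0.34 over a median of 0.80 to 1.07 in cHF+F+ROSI. Mouse RNA always carried Cy5 and the pool Cy3, so this level cannot be told apart from a dye effect. All 8 mice given the n-3 concentrate fell within the cHF+ROSI range, and the log2 differences were 0.04 (SE 0.12) on the brighter probe, which was -0.08 with array weights, and -0.01 (SE 0.10) on the other. The brightest Fn1 probe ran from -0.73 over a median of -0.23 to 0.02 in cHF+ROSI and from -0.58 over a median of -0.27 to -0.04 in cHF+F+ROSI, again wholly inside the cHF+ROSI range. The 3 Fn1 probes kept gave log2 differences of -0.02 (SE 0.10), -0.01 (SE 0.12) and 0.05 (SE 0.07), and their signs varied with the scaling. Tnxb ran from -0.73 over a median of -0.18 to 0.03 in cHF+ROSI and from -0.74 over a median of -0.23 to 0.11 in cHF+F+ROSI, with a log2 difference of -0.04 (SE 0.15). Its dim probe gave -0.03 (SE 0.05), which went from -0.38 with the scanner's processed signals to 0.01 with scale normalization, so its value is not settled.

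Sparc encodes a collagen-binding glycoprotein that assists fibril assembly, and Postn encodes periostin, which cross-links collagen with other matrix proteins and is known from scars and tendons. Sparc, at 323 times background, ran from -0.43 over a median of -0.08 to 0.39 in cHF+ROSI and from -0.58 over a median of -0.09 to 0.21 in cHF+F+ROSI (log2 ratios). The groups overlapped almost fully, and the 2 probes gave log2 differences of -0.09 (SE 0.11) and -0.11 (SE 0.14). Postn ran from -0.04 over a median of 0.07 to 0.60 in cHF+ROSI and from -0.36 over a median of 0.06 to 0.23 in cHF+F+ROSI. The medians were level, 3 cHF+ROSI mice were above every mouse given the n-3 concentrate and 3 mice of the latter group were below every cHF+ROSI mouse, for a log2 difference of -0.17 (SE 0.11) and lower values on 2 of 4 slides.

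Timp1 encodes a secreted inhibitor of matrix metalloproteinases. Its kept probe ran from -0.80 over a median of -0.19 to 1.37 in cHF+ROSI and from -0.85 over a median of -0.55 to 0.56 in cHF+F+ROSI (log2 ratios). The highest value was that of cHF+ROSI replicate 4, far above the next mouse of its group at -0.13. The log2 difference of -0.34 (SE 0.24) was -0.13 without that mouse. The other Timp1 probe, left out as too weak, gave -0.15 (SE 0.07) with the limit on weak spots lifted. The probes left out for Dcn and Fn1 likewise gave 0.04 (SE 0.06) and -0.05 (SE 0.06).

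**Figure D2:**
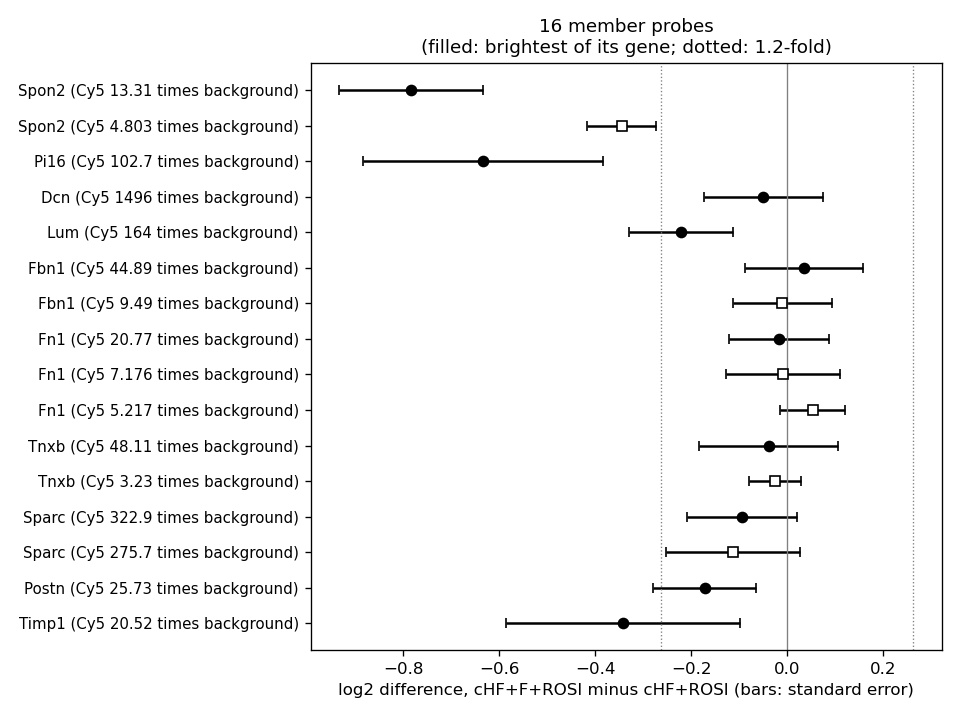
Differences in log2 ratio between cHF+F+ROSI and cHF+ROSI (x axis) for the 16 kept probes of the 10 genes (y axis, with the Cy5 signal over background), with bars for the standard error, filled circles for the brightest probe of a gene and dotted lines at a 1.2-fold change. The probes of Spon2 at -0.78 and -0.35, Pi16 at -0.63 and Timp1 at -0.34 lie beyond the dotted line, and the other 12 lie within it.

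Of the 16 kept probes, 14 had lower means in cHF+F+ROSI and 2 higher, beside 49.2% lower among all probes. By the brightest probe 9 genes were lower and Fbn1 higher, but the values of Dcn, Fbn1 and Fn1 changed sign under at least 1 other way of processing and that of Tnxb when 1 mouse was left out. The limits of unadjusted p and fold were passed by 3 probes, the 2 of Spon2 and that of Pi16, beside 1.39% of all probes lower, and none passed the adjusted limit, beside 0.0825% of all probes. Groups without overlap occurred for 1 probe, the dimmer of Spon2, beside 0.16% of all probes. The diet comparison was used in choosing the genes, so nothing is read from these counts. The median of the 10 log2 differences was -0.13, and over all probes it was 0.00.

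Variation between mice on the same diet leaves out the diet difference by which the genes were chosen. It was compared with that of the collagens that fibroblasts make. Genes and collagens were both picked as fibroblast matrix genes, with earlier results of these data known. A relation between them is thus not independent of that choice. For each mouse the deviation from its diet group's mean was taken for each gene (brightest probe) and for the mean of 8 collagen genes, Col1a1, Col1a2, Col3a1, Col5a1, Col5a2, Col6a1, Col6a2 and Col6a3. Mice with more collagen RNA than their group also had more RNA of most of the 10 genes, led by Fn1, Sparc and Fbn1, whereas Pi16 did not follow. In total 10 relations were tested over 16 mice by two-sided permutation within the groups (100000 resamples) with Benjamini-Hochberg adjustment over the 10, and 6 passed, the lowest of them at r = 0.58. All values of a mouse come from 1 array. Of 19181 other probes 4.64% had an r with the collagen mean as high as that, and 5.85% had one as far below 0. The median r over all of them was -0.05.

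Fn1 followed the collagens most closely, with Pearson r = 0.83 (permutation p = 0.0002, adjusted p = 0.002) and Spearman rho = 0.80 (permutation p = 0.00072, adjusted p = 0.0072), and 12 of 16 mice deviated in the same direction for both. This holds for its brightest probe, the only one compared, which correlated at 0.73 and 0.33 with the other Fn1 probes kept. Sparc had r = 0.76 (permutation p = 0.00175, adjusted p = 0.00875) and rho = 0.71 (p = 0.00411, adjusted p = 0.0205), with 10 of 16 mice on the same side. Fbn1 had r = 0.71 (permutation p = 0.00299, adjusted p = 0.00997) and rho = 0.68 (p = 0.00662, adjusted p = 0.0221), with 11 of 16 mice on the same side. For these 3 genes the coefficients were positive within cHF+ROSI (r = 0.85, 0.85 and 0.60) and within cHF+F+ROSI (r = 0.80, 0.68 and 0.85).

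Tnxb had r = 0.67 (permutation p = 0.0067, adjusted p = 0.0167) and rho = 0.64 (p = 0.0159, adjusted p = 0.0398), with 11 of 16 mice on the same side. The Tnxb values are again those of its brightest probe, which correlated at 0.24 with the dim one. Postn had r = 0.66 (permutation p = 0.00857, adjusted p = 0.0171) and rho = 0.49 (p = 0.0552, adjusted p = 0.11), and Spon2 had r = 0.58 (permutation p = 0.0268, adjusted p = 0.0447) and rho = 0.44 (p = 0.105, adjusted p = 0.15), each with 10 of 16 mice on the same side. The rank correlations of these last genes thus missed the limit, and 4 of 10 passed by rank. Dcn (r = 0.54, rho = 0.50, permutation p = 0.0376 and 0.0662, adjusted p = 0.0504 and 0.11, 11 of 16 mice) and Timp1 (r = 0.56, rho = 0.35, permutation p = 0.0404 and 0.204, adjusted p = 0.0504 and 0.242, 10 of 16 mice) fell just outside the limit. Lum had r = 0.30 and rho = 0.34 (permutation p = 0.279 and 0.218, adjusted p = 0.279 and 0.242, 11 of 16 mice).

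Pi16 alone had a negative coefficient, r = -0.47 and rho = -0.32 (permutation p = 0.085 and 0.279, adjusted p = 0.0944 and 0.279), with 8 of 16 mice on either side, which did not pass the test. Within cHF+ROSI its r was 0.28 and within cHF+F+ROSI -0.76, a difference that was not tested, and cHF+F+ROSI replicate 2 had at once the lowest Pi16 and the highest collagen mean of its group. Without the 2 mice farthest from the median collagen deviation, cHF+ROSI replicate 7 at -0.61 and cHF+F+ROSI replicate 2 at 0.56, r became -0.25 for Pi16 and 0.40 for Spon2, and 3 relations still passed, those of Fn1 (r = 0.70, permutation p = 0.00724, adjusted p = 0.0362), Postn (r = 0.72, permutation p = 0.00448, adjusted p = 0.0362) and Sparc (r = 0.67, permutation p = 0.0148, adjusted p = 0.0495). Those of Fbn1 (r = 0.61, adjusted permutation p = 0.0625), Tnxb (r = 0.56, adjusted permutation p = 0.0967) and Spon2 (adjusted permutation p = 0.244) missed the limit without these 2 mice. Leaving out the extremes of the collagen mean also narrows its range and leaves fewer mice, so this does not show that the relations rested on them. Against the mean of 6 muscle fibre genes in place of the collagens, no relation passed the adjusted limit, and none had an unadjusted permutation p below that of Pi16 (r = 0.43, p = 0.0711, adjusted p = 0.449).

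**Figure D3:**
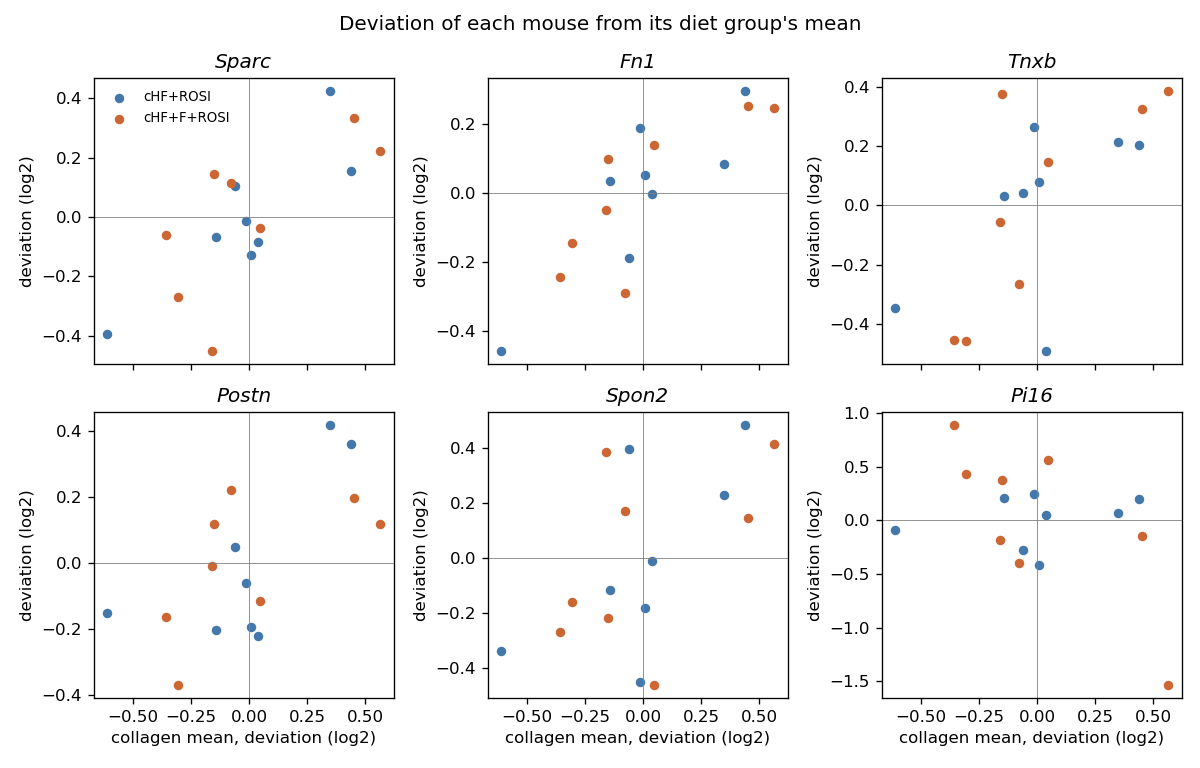
Deviation of each mouse from its diet group's mean (log2 units) for 6 of the genes (y axis of each panel) against the same deviation of the mean of 8 collagen genes (x axis), with cHF+ROSI mice in blue and cHF+F+ROSI mice in orange. The points of Fn1 and Sparc rise with the collagen mean (r = 0.83 and 0.76), and those of Pi16 do not, with 1 cHF+F+ROSI mouse at the lower right.

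Among themselves the 10 genes formed 45 pairs, given as a description. The coefficient of the deviations was above 0 in 37 pairs and above 0.5 in 12, with a median of 0.31. The highest were Fbn1 with Fn1 (r = 0.83), Fn1 with Tnxb (0.77), Sparc with Postn (0.75), Fbn1 with Tnxb (0.69) and Spon2 with Timp1 (0.68). On their brightest probes, fibronectin, fibrillin-1 and tenascin-X thus had high coefficients with each other, and decorin with lumican gave r = 0.59. For Spon2 with Timp1, cHF+ROSI replicate 4 and cHF+F+ROSI replicate 2 were the highest mice of their groups for both genes. The coefficient without these mice was not computed. The lowest pair was Spon2 with Pi16, the genes that lead the diet comparison, at r = -0.57, with -0.04 within cHF+ROSI and -0.85 within cHF+F+ROSI. Spon2 and Dcn gave 0.92 within cHF+ROSI and -0.27 within cHF+F+ROSI, and neither of these differences between diets was tested.

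**Figure D4:**
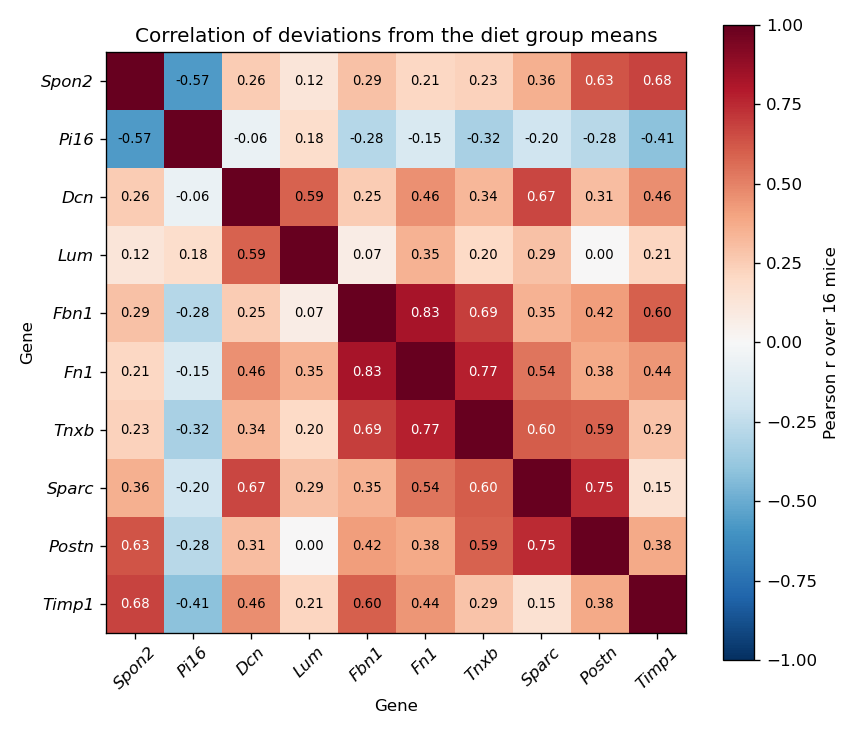
Pearson r over 16 mice (colour scale and printed values, from -1 to 1) of the deviations from the diet group means for each pair of the 10 genes (both axes, brightest probe per gene). Fbn1, Fn1 and Tnxb form a block of 0.69 to 0.83, and Pi16 has values from -0.57 to 0.18 with the other genes.

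Where a gene had several kept probes, the deviations of 2 probes correlated at r = 0.86 for Fbn1, 0.84 for Sparc and 0.76 for Spon2. For Fn1 the brightest probe correlated at 0.73 and 0.33 with the other 2, which gave -0.13 with each other, and the bright and dim Tnxb probes gave 0.24. The Sparc and Postn promoters are shown because these genes varied together, with the same 250-base window, build, direction and marking as for Pi16 (Sparc chr11:55420081-55420330, minus strand; Postn, with 2 start sites, chr3:54359017-54359266 and chr3:54360857-54361106, plus strand).
Sparc: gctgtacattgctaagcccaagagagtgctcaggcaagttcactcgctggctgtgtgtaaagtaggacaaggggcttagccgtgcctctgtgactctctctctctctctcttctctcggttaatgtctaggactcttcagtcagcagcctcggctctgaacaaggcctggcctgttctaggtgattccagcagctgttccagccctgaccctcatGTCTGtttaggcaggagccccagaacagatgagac
Postn, first start: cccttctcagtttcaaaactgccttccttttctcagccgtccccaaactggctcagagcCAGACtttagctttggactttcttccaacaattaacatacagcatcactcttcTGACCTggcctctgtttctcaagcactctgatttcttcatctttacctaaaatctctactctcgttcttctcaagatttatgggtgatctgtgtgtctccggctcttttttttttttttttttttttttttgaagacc
Postn, second start: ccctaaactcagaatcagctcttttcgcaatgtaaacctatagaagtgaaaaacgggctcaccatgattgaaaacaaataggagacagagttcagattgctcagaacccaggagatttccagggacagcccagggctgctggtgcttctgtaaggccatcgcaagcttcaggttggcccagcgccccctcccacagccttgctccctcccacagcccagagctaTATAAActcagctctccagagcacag
Sparc held CAGAC 35 bases before its start, Postn held CAGAC 191 and AGGTCA 138 bases before its first start and TATAAA 26 bases before its second. A match is a run of letters and not a measured binding site.

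Spon2 and Pi16 were also set against all 19189 probes with a value on every array, to name the genes most like each between mice. For Spon2 these were Nts, the neuropeptide neurotensin (r = 0.90), Emb, the adhesion molecule embigin (0.89), Lrrc8d, a subunit of volume-regulated anion channels (0.88), Cnpy4 (0.88) and Prrx2, a mesenchymal homeobox factor (0.87). Their r stayed between 0.83 and 0.87 without the 2 mice farthest out for Spon2, and 190 of 19188 probes (0.99%) had r above 0.7, while the other Cnpy4 probe followed Spon2 at 0.60. For Pi16 they were Zrsr2 and Tra2a, splicing factors (0.90 each), Ube2s, a ubiquitin-conjugating enzyme (0.90), Suds3, a subunit of the SIN3 corepressor (0.89), and Vapb, an endoplasmic reticulum membrane protein (0.88). Here r was 0.63 to 0.71 without cHF+F+ROSI replicates 2 and 5, and 489 probes (2.55%) had r above 0.7. The second Ube2s probe followed Pi16 at 0.88, but other probes of the same genes did not always do so, at -0.05 for Zrsr2, -0.09 for Suds3, -0.16 and 0.61 for Tra2a and 0.34 and 0.54 for Vapb. None of these genes is among the 10 or in the matrix lists.

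**Figure D5:**
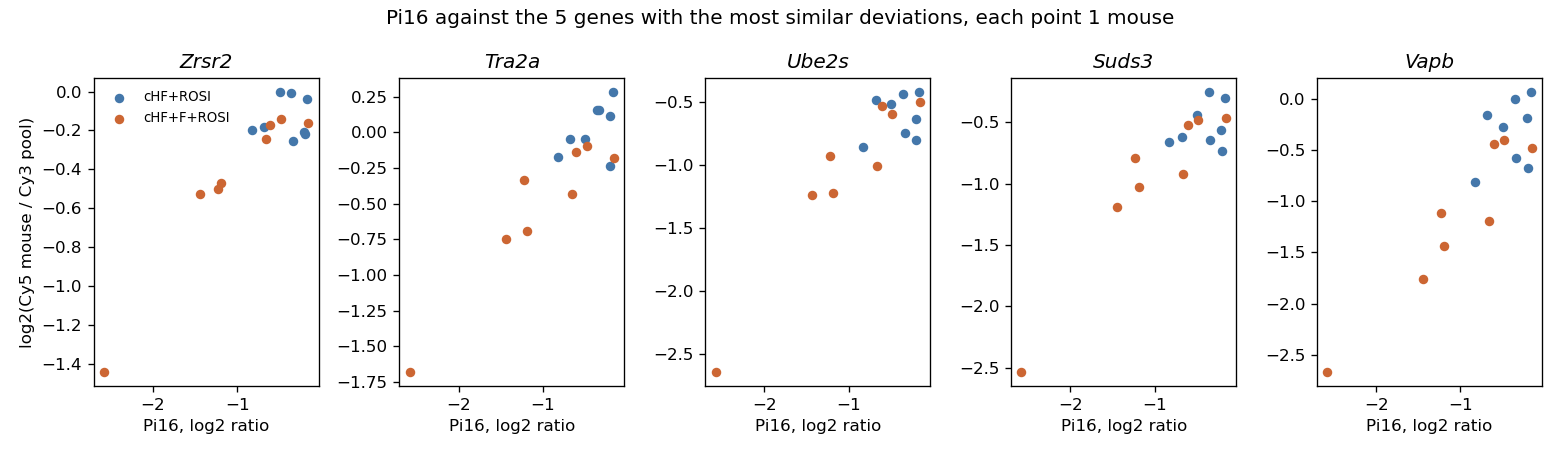
Log2 ratio to the reference pool of the 5 genes most like Pi16 (y axis, 1 panel each) against that of Pi16 (x axis), 1 point per mouse, with cHF+ROSI in blue and cHF+F+ROSI in orange. In every panel cHF+F+ROSI replicate 2, at a Pi16 value of -2.58, lies far below all other mice, and r without it and replicate 5 was 0.63 to 0.71.

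The other genes of fibroblast matrix, 104 measured of 111 on the array in 5 lists, gave few calls. Cilp, a matrix protein of cartilage and muscle connective tissue, and Mgp, matrix Gla protein, which inhibits calcification, passed the limits of unadjusted p and fold and were lower in cHF+F+ROSI. These 2 genes are 1.92% of the 104, beside 2.07% of all probes. The count depended on single mice and was 8 without cHF+F+ROSI replicate 2, where 424 of all probes were called, and 7 with the scanner's processed signals, where 826 were. The adjusted limit of limma was passed by 0, and 9 of the 104 had an unadjusted p up to 0.05, beside 10.3% of all probes. In all 73 were lower and 31 higher, beside 49.2% lower among all probes, with a median log2 difference of -0.07.

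Cilp (chr9:65078206-65078265) ran from -0.70 over a median of -0.10 to 0.31 in cHF+ROSI and from -1.08 over a median of -0.59 to -0.26 in cHF+F+ROSI. All 8 mice given the n-3 concentrate were below the cHF+ROSI mean, with overlap of the ranges, and the log2 difference was -0.54 (SE 0.15, limma adjusted p = 0.189). Mgp (chr6:136836800-136836859) ran from -0.39 over a median of -0.04 to 0.65 and from -0.66 over a median of -0.17 to -0.09, with a log2 difference of -0.33 (SE 0.13, limma adjusted p = 0.384) and again 8 of 8 mice below the cHF+ROSI mean. Each was lower on 4 of 4 slides, by -0.88 to -0.39 for Cilp and by -0.48 to -0.10 for Mgp. The 8 collagens were split, 4 lower and 4 higher, with 0 at an unadjusted p up to 0.05 and a median of 0.00.

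Among 19 relatives of the 10 proteins, such as other small leucine-rich proteoglycans and TIMPs, 12 were lower and 7 higher (median -0.05), and 1 had an unadjusted p up to 0.05, Crispld2, like Pi16 of the CRISP family, at -0.22 (SE 0.11). Of 33 other matrix glycoproteins, 22 were lower (median -0.05), with Vtn, vitronectin, at -0.20 (SE 0.07) beside Cilp and Mgp. Of 24 genes that process or break down matrix, 19 were lower (median -0.09), and the 3 furthest from 0 at that p were the membrane-type metalloproteinases Mmp14 (-0.26, SE 0.08) and Mmp15 (-0.20, SE 0.06) and the collagen-modifying enzyme Plod3 (-0.21, SE 0.06). Adamts5, also at that p, went the other way and was higher, at 0.18 (SE 0.08). Of 20 signalling genes and receptors, 16 were lower (median -0.09), with the integrin chain Itgb1 at -0.13 (SE 0.04). The unadjusted limit without a fold was passed by 9 genes in all, and of those named in this paragraph only Cilp and Mgp reached 1.2-fold.

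Markers of cell types were read beside these values. The 11 fibroblast markers, which include 3 of the collagens, were measured and 0 were called, with mean log2 ratios from -0.32 to 0.33 in cHF+ROSI mice and from -0.23 to 0.39 in cHF+F+ROSI mice. Endothelial markers were lower in 5 of 6 genes, each of the 5 at an unadjusted p up to 0.05, beside 10.3% of all probes at that p. Their mean log2 ratios ran from -0.25 to -0.03 in cHF+ROSI and from -0.41 to -0.09 in cHF+F+ROSI. Kdr (-0.28, SE 0.12) was called. All 6 mural cell markers were measured, 3 lower and 3 higher, and the pericyte marker Rgs5 was called (-0.44, SE 0.17). Adipocyte markers were higher in 5 of 7 genes and Schwann cell markers lower in 5 of 5, with 0 called in either list and medians of 0.37 and -0.33. Muscle fibre markers had mean log2 ratios from 0.15 to 0.56 and from 0.10 to 0.48. Of these 6 genes 3 were lower and 3 higher, and 1 had an unadjusted p up to 0.05, Mylpf at 0.18 (SE 0.08). Pax7 and Myf5 of satellite cells and Top2a and Ccnb1 of cycling cells were too weak to be used. The part of these shifts in the Spon2 and Pi16 values was not tested.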

How the data were processed

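The study hybridised gastrocnemius RNA of 16 mice to two-colour Agilent arrays, and the authors deposited scanner output with spot intensity values per channel (Feature Extraction, version 10.5.5.1 per the labels and 10.5.1.1 per the file headers, probe positions on NCBI36) and a table of normalized log2 ratios. The direction, mouse (Cy5) over pool (Cy3), comes from the labels. Here median intensities were background-corrected by normexp (offset 50). Left out were spots the scanner software marked as outliers and spots whose local background exceeded 3 times the array median, the latter 329 of 720288 and 0 for the 10 genes, because they distorted the normexp fit on some arrays; this was chosen after the data were seen. Spots with a mean signal of at least 2 times background in each channel were kept, the arrays loess-normalized and spots of a probe averaged, leaving 19398 probes. The groups were compared with limma 3.58.1 in R 4.3.3 (group as the only term, Benjamini-Hochberg over all probes kept), and the scripts were tested on simulated data. Values are per probe, and lists use the brightest probe of a gene.

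The 10 genes and all lists were chosen with earlier results of these data known. Named were every probe of the 10 genes, of each matrix list the genes past the adjusted limit and up to 3 with the largest change at an unadjusted p up to 0.05, and the 5 genes most like Spon2 and Pi16. Itgb1, Vtn, Crispld2, Cilp and Mgp fall under the list rule, whereas Adamts5, Kdr, Rgs5 and Mylpf were named after their values were seen. The methods' t-test, other background corrections and scalings, no filter on weak spots, array weights, blocks by slide and replicate number, and leaving out each mouse were the alternatives. A probe was named by the array files, and 24375 of 41174 probes (59.2%) had a current RefSeq symbol through their accession. Promoters are from RefSeq GRCm38.p6, a later build than that of the probe positions, and the builds were not mixed. Replicate numbers were not treated as pairs. Deviations of same-numbered mice correlated at r = -0.27 to 0.34, which cannot exclude a pairing. The precision is limited by the 8 mice per group. Mice were separate animals but shared cages, and which mice shared a cage is not given, so cage was not taken into account.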

Additional observations from a re-analysis of the deposited data

Results flagged for a closer look

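Of 56 groups of 8 values examined for 1 mouse far from the other 7, 2 were found, where chance alone gives about 1 in 20, or 2.8. Timp1 had a log2 ratio of 1.37 in cHF+ROSI replicate 4, with the next mouse of its group at -0.13. The mean of the red blood cell markers was 1.19 in cHF+F+ROSI replicate 6, with the next mouse of its group at 0.00. The cause of either value was not tested.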

How the results depend on the processing

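The log2 differences of the Spon2 and Pi16 probes changed sign neither under an alternative nor when a mouse was left out, and the median over the 10 genes stayed between -0.14 and -0.09 over the alternatives and between -0.17 and -0.07 when 1 mouse was left out. The median over the matrix lists was -0.08 to -0.06 and -0.09 to -0.04. The count of all probes at the limits of p and fold, 402, became 689 by normexp without an offset, 826 with the scanner's processed signals, 606 by median centring, 686 with the authors' normalized values and 658 with Cy5 signals only, and it ran from 308 to 502 without 1 mouse. It was 289 when spots of bright local background were kept, an alternative added after the data were seen, which gave -0.63, -0.28 and -0.65 for the Spon2 probes and Pi16. The count in the matrix lists, 2, became 7 with processed signals, 5 in the Cy5 channel, 4 with slide as a block and 5 with array weights. Without 1 mouse it ran from 2 to 8, with 4 without cHF+ROSI replicate 2, 3, 5, 6 or 8, 6 without cHF+ROSI replicate 7 or cHF+F+ROSI replicate 4, and 8 without cHF+F+ROSI replicate 2. With the replicate block 414 probes and 2 matrix genes were called, the median of the 10 genes was -0.13, and 0 of 8 mice correlated best with the mouse of their own number, and the block left the count of matrix genes as it was. The relations to the collagens, 6 past the adjusted limit, were 0 against muscle fibre genes, 4 by rank, and 4 to 8 without 1 mouse. They were not recomputed under the filters on weak spots, blocks, weights or the authors' table. The cause of these changes was not tested.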
